A study of Mus musculus with 33 samples.

Results

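The data compared here were RNA-seq libraries of whole mouse ovary, 3 labelled Fshb(-/-) and 3 labelled WT, which are 6 of the 33 libraries and 1 pair of the 9 groups in the study. They were chosen by their labels alone: both groups belong to the first of 3 experiments, which also held 3 libraries labelled Fshb(+/-). Fshb encodes the beta subunit of follicle-stimulating hormone (FSH), so a Fshb(-/-) mouse lacks the hormone in every tissue from conception. The labels give no age, strain or cycle stage for these libraries (their stage label reads NA), do not say whether ovaries were pooled, and name no batch within the experiment. They do not say whether the libraries came from separate animals, so p-values measure the spread between these libraries only. The second experiment set 4 libraries of Fshb(-/-) ovary against 4 labelled Fshb(-/-) HFSHB, mice that lack the mouse gene and carry the human FSHB transgene. The third held 4 libraries labelled KO (anestrus), whose genotype label nevertheless reads WT, and 4 each of WT ovaries at the stages labelled DE, PE and E.

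FSH is made in the pituitary and acts in the ovary on granulosa cells, the somatic cells that surround the oocyte, through the receptor Fshr and cyclic AMP. It is known for carrying follicles past the preantral stage, for inducing aromatase and the inhibin and activin subunits, and for preparing granulosa cells for luteinizing hormone (LH), which acts on theca cells and triggers ovulation. Female mice without FSH are known to be infertile, with small ovaries in which follicles do not reach the antral stage and no corpora lutea form.

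Transcripts of Fshb itself, reported first because they check the labels, ran against the direction that the labels name. The libraries labelled Fshb(-/-) held 68, 79 and 82 counts of Fshb (chromosome 2, 107056140 to 107059656, GRCm38), the libraries labelled WT held 1, 1 and 0, and those labelled Fshb(+/-) held 43, 60 and 106. The counts therefore separated libraries labelled with a targeted allele from those without one, but were higher, not lower, in the libraries labelled Fshb(-/-). A count for a whole gene does not say which of its exons was read. For this reason the groups are called KO-labelled and WT-labelled below.

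Total counts were 13.59 M to 16.45 M in the KO-labelled libraries and 16.2 M to 16.93 M in the WT-labelled ones. Markers of the ovary were present in all 6 libraries, with Foxl2, a transcription factor of granulosa cells, at 227 to 299.7 CPM (counts scaled to the size of the library) and the oocyte gene Zp2 at 58.8 to 157 CPM. WT replicate 3 stood apart from the other libraries. Of 24 targets of the damage-responsive factor p53, a list written after its values were seen, 22 were higher in that library than in each of the 8 others of the experiment, with a median ratio of 3.75 to the mean of WT replicates 1 and 2. Eda2r stood at 146.6 CPM there against 7.99 and 9.33 in the other WT-labelled libraries, Ccng1 at 479 against 70.04 and 62.6, and Bbc3 at 42.6 against 3.996 and 4.26. In the same library 18 of 25 luteal genes were below both other WT-labelled libraries, with a median ratio of 0.45. Counts of the luteal list with and without WT replicate 3 are given with that list. KO replicate 2 differed more from KO replicates 1 and 3 (median absolute log2 difference 0.278 and 0.254) than those did from each other (0.139).

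**Figure D1:**
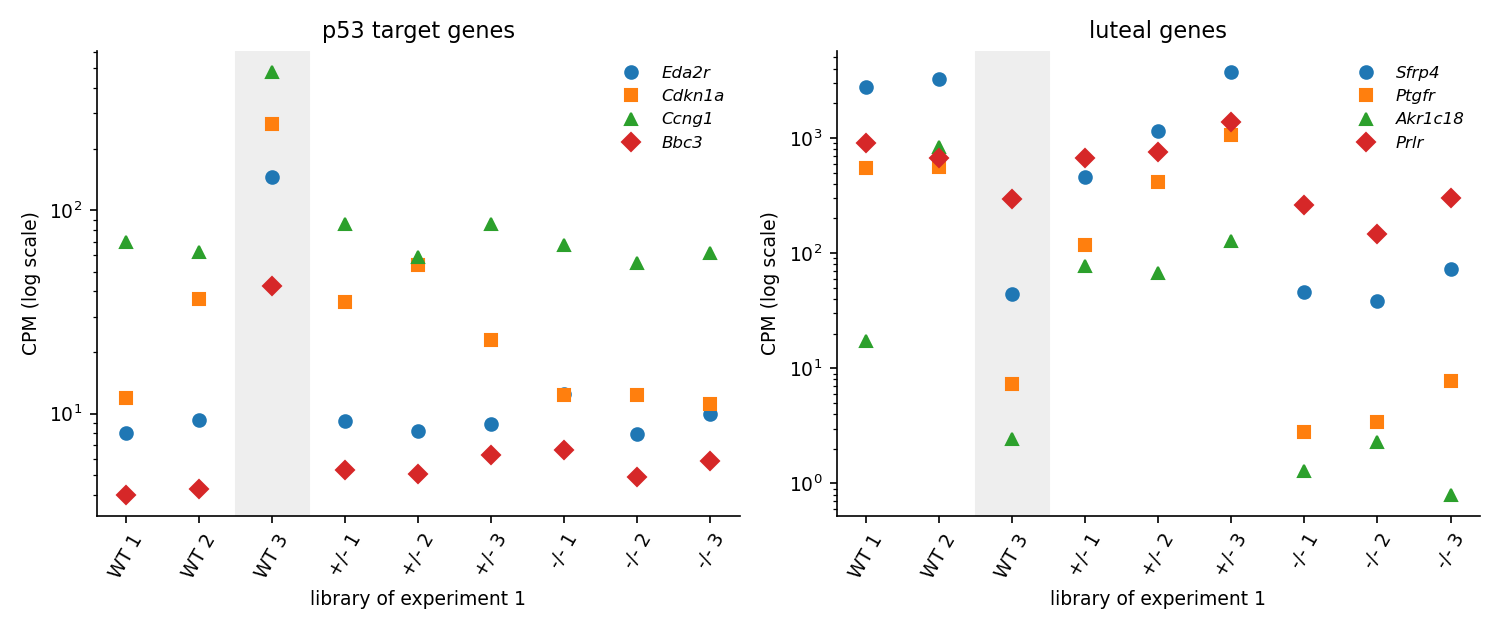
CPM (log scale) of 4 p53 targets (left) and 4 luteal genes (right) in each of the 9 libraries of experiment 1; each point is 1 library and the grey band marks WT replicate 3. That library holds the highest values on the left (Eda2r 146.6 CPM) and, for Sfrp4 (44.5 CPM), sits among the KO-labelled libraries on the right.

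Between KO-labelled and WT-labelled ovary, 1355 of 17223 genes tested differed (7.87%; edgeR's quasi-likelihood test, Benjamini-Hochberg adjusted p under 0.05), with 780 higher (4.53%) and 575 lower (3.34%) in the KO-labelled libraries. The changes reached at least 2-fold in 343 genes that were higher and 313 that were lower, and at least 8-fold in 46 and 49. The KO-labelled and WT-labelled libraries did not overlap in 1352 of the 1355 genes, while 6076 of all genes tested (35.3%) showed no overlap. The median log2 difference over all genes tested was -0.0067. Every fit that left out 1 library called fewer genes, 456 to 597 when it was any library but WT replicate 3 and 1031 without WT replicate 3. Of the 1355 genes, 341 were called in all 6 of these fits (214 higher, 127 lower), and the number of members so called is given below for the main gene lists.

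**Figure D2:**
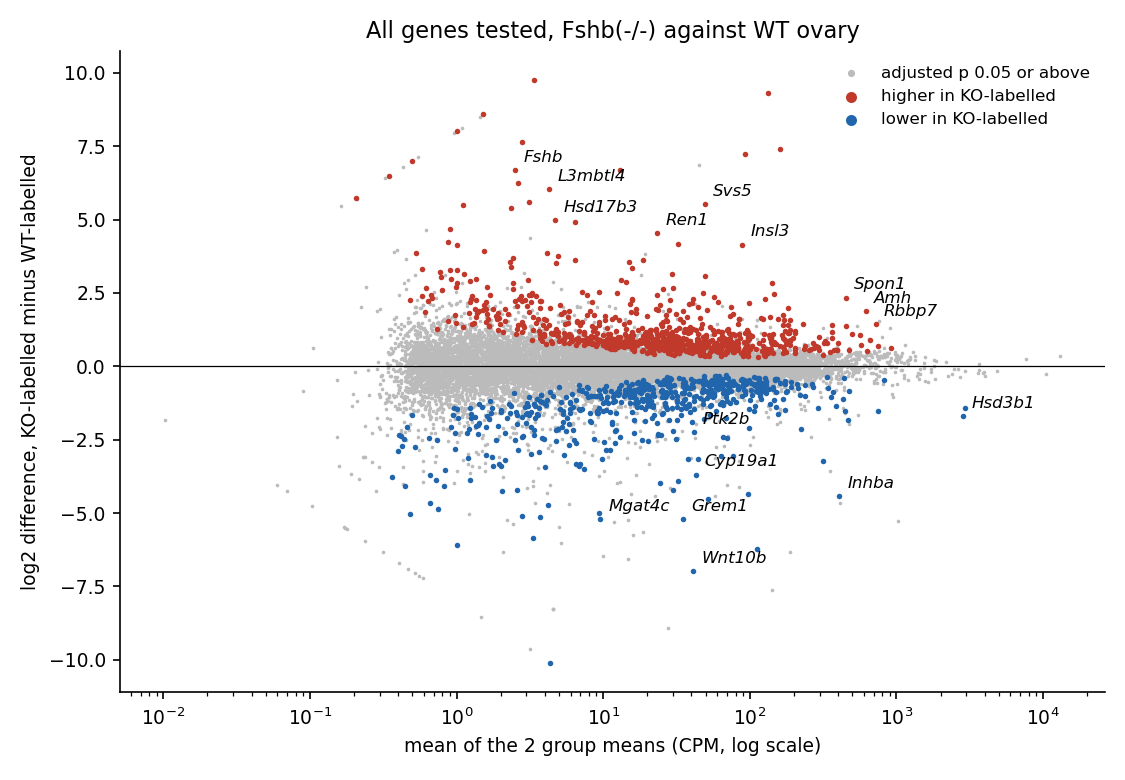
Log2 difference between KO-labelled and WT-labelled libraries (vertical axis) against the mean of the group means in CPM (log scale, horizontal axis) for each gene tested. Red points (780 genes) are higher and blue points (575 genes) lower at an adjusted p under 0.05; Svs5, Insl3 and Spon1 lie high above the zero line and Inhba, Grem1 and Wnt10b far below it.

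The libraries of the other 2 experiments share no sample with these 6. Of the 780 higher genes, 646 (82.8%, and 23.7% of the 2731 higher genes there) were also higher in Fshb(-/-) than in Fshb(-/-) HFSHB ovary of experiment 2, where 16.2% of genes tested were called higher. Of the 575 lower genes, 464 (80.7%, and 17.5% of 2659) were lower there as well, against 15.8% of genes tested. In experiment 3 the libraries labelled KO (anestrus) were set against the mean of the 3 stages. There 591 of the higher genes were higher again (75.8%, against 18.4% of genes tested there). Of the lower genes, 417 were lower again (72.5%, against 18.1%). They made up 19.0% of the 3113 higher and 13.6% of the 3067 lower genes of experiment 3. In experiment 1, 4.53% of all genes tested were called higher and 3.34% lower. In experiment 3 markers of other tissue also differed between its groups: 12 of 14 genes of oviduct and cilia were lower in the libraries labelled KO (anestrus), with a median log2 difference of -3.53, as were 8 of 17 surface epithelium and 8 of 13 smooth muscle genes, and their part in these counts was not tested. No gene was called in opposite directions in experiments 1 and 3, and 10 were called so in experiments 1 and 2. Both other experiments had 4 libraries a group and called more genes than experiment 1.

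**Figure D3:**
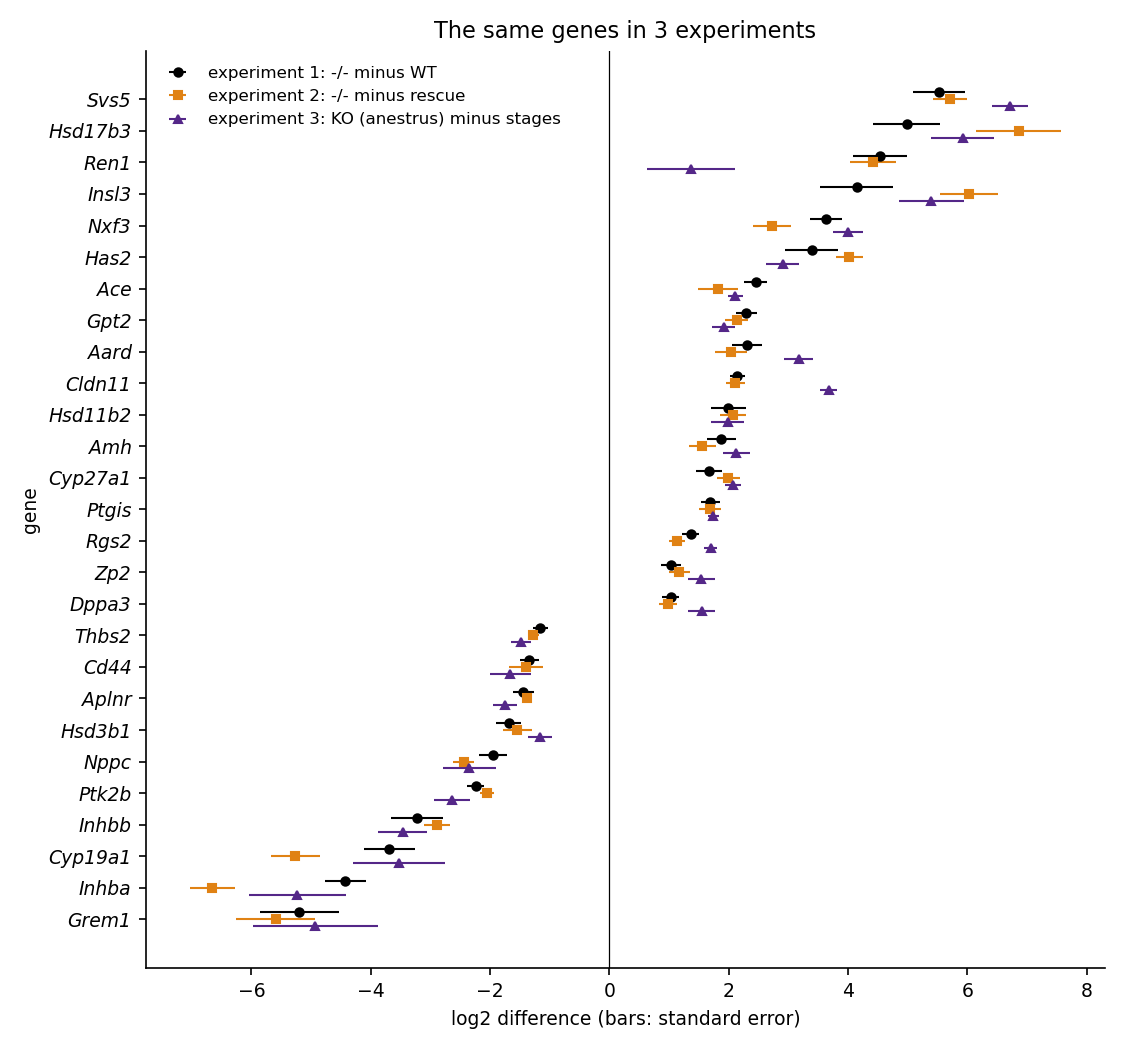
Log2 difference (horizontal axis, bars are standard errors) of 27 genes, 1 per row, in experiment 1 (circles), experiment 2 (squares) and experiment 3 (triangles). All 27 genes keep 1 side of zero in the 3 experiments. They were picked from genes called in experiment 1 and leave out the 10 called in opposite directions in experiments 1 and 2. The estimate for Ren1 is smaller in experiment 3 (1.37) than in experiment 1 (4.54).

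Granulosa genes known to be induced by FSH fell more often than they rose in the KO-labelled ovaries. Of 27 such genes tested, 8 fell, 2 rose and 17 did not pass the test, with a median log2 difference of -0.60, and 5 of the 10 were called in all 6 fits without 1 library. All 8 fell in experiment 2 and 7 of them in experiment 3. The list gave 10 lower calls without WT replicate 3 and 5 without any other library, and no higher call in these fits. In RNA from whole ovary, fewer cells of a type and less RNA per cell cannot be told apart, which holds for every result here.

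Inhba (chromosome 13, 16011851 to 16031621), which encodes the beta A subunit shared by activin A and inhibin A, was at 41.4, 30.4 and 37.4 CPM in the KO-labelled libraries. It was at 668, 1181 and 497 CPM in the WT-labelled ones. The lowest WT-labelled library was thus above the highest KO-labelled one by more than 10 times, and the log2 difference was -4.42 ± 0.35 (SE; edgeR adjusted p = 0.00075). Inhbb, the beta B subunit, was at 63.5, 74.5 and 44.3 CPM against 718, 729.5 and 257 CPM. It fell by 3.22 ± 0.44 on the log2 scale (adjusted p = 0.0054), with WT replicate 3 the lowest of its group. Inha, the alpha subunit that joins either beta chain to form inhibin, did not pass the test and its groups overlapped, at 2063 to 2794 CPM against 1944 to 2870 CPM (log2 difference -0.09 ± 0.19, adjusted p = 0.81).

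Cyp19a1, the aromatase that turns androgens into oestrogens, was at 5.998, 6.89 and 5.65 CPM in the KO-labelled libraries and at 64.2, 123.2 and 51.7 CPM in the WT-labelled ones. All 3 KO-labelled libraries were low and close together, and the gene fell by 3.69 ± 0.43 on the log2 scale (edgeR adjusted p = 0.0031). The Fshb(+/-) libraries lay between the groups at 16.3, 37.8 and 34.2 CPM. Grem1, a secreted antagonist of bone morphogenetic proteins (BMPs), had the largest fall of the list, from 36.2, 90.1 and 78.0 CPM in the WT-labelled libraries to 2.12, 1.03 and 2.34 CPM. Its log2 difference was -5.20 ± 0.66 (adjusted p = 0.0045), and its values in the Fshb(+/-) libraries were 3.79, 16.3 and 6.24 CPM.

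Nppc, the precursor of C-type natriuretic peptide, which granulosa cells secrete to hold the oocyte in meiotic arrest, was at 4.97, 4.03 and 5.10 CPM in the KO-labelled libraries against 13.1, 19.0 and 22.6 CPM. The 3 groups did not overlap, with the Fshb(+/-) libraries at 8.51, 8.29 and 6.24 CPM, and Nppc fell by 1.95 ± 0.23 on the log2 scale in the KO-labelled libraries (adjusted p = 0.0025). Fst, the activin-binding protein follistatin, was lower by a smaller margin, at 90.7 to 117 CPM against 150 to 234 CPM (log2 difference -0.88 ± 0.23, adjusted p = 0.049). Igf1, an insulin-like growth factor that acts with FSH in granulosa cells, was higher, at 126.8, 107.7 and 125 CPM against 79.9, 66.6 and 70.9 CPM (log2 difference 0.73 ± 0.16, adjusted p = 0.032). The calls of Fst and Igf1 were each lost when any 1 of the 6 libraries was left out.

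The receptor for FSH did not pass the test with all libraries. Fshr was at 55.9, 44.1 and 38.7 CPM in the KO-labelled libraries and at 22.8, 45.2 and 25.5 CPM in the WT-labelled ones, which overlapped (log2 difference 0.57 ± 0.25, edgeR adjusted p = 0.19). Without WT replicate 2, the highest of its group, the log2 difference was 0.94 (adjusted p = 0.034), and the gene passed in no other fit without 1 library. Lhcgr, the LH receptor of theca, luteal and mature granulosa cells, was at 514 to 739 CPM against 513 to 1201 CPM (log2 difference -0.43 ± 0.36, adjusted p = 0.50). Of 16 gonadotropin and steroid receptors tested, 1 rose, which was the oestrogen receptor Esr2, and none fell. Esr2 was at 220.35, 172 and 198 CPM against 144, 102 and 121 CPM (log2 difference 0.69 ± 0.15, adjusted p = 0.028), and its call was lost without KO replicate 1, KO replicate 3, WT replicate 2 or WT replicate 3. Without WT replicate 3 the list gave 0 higher and 2 lower calls, and no member was called in all 6 fits without 1 library.

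**Figure D4:**
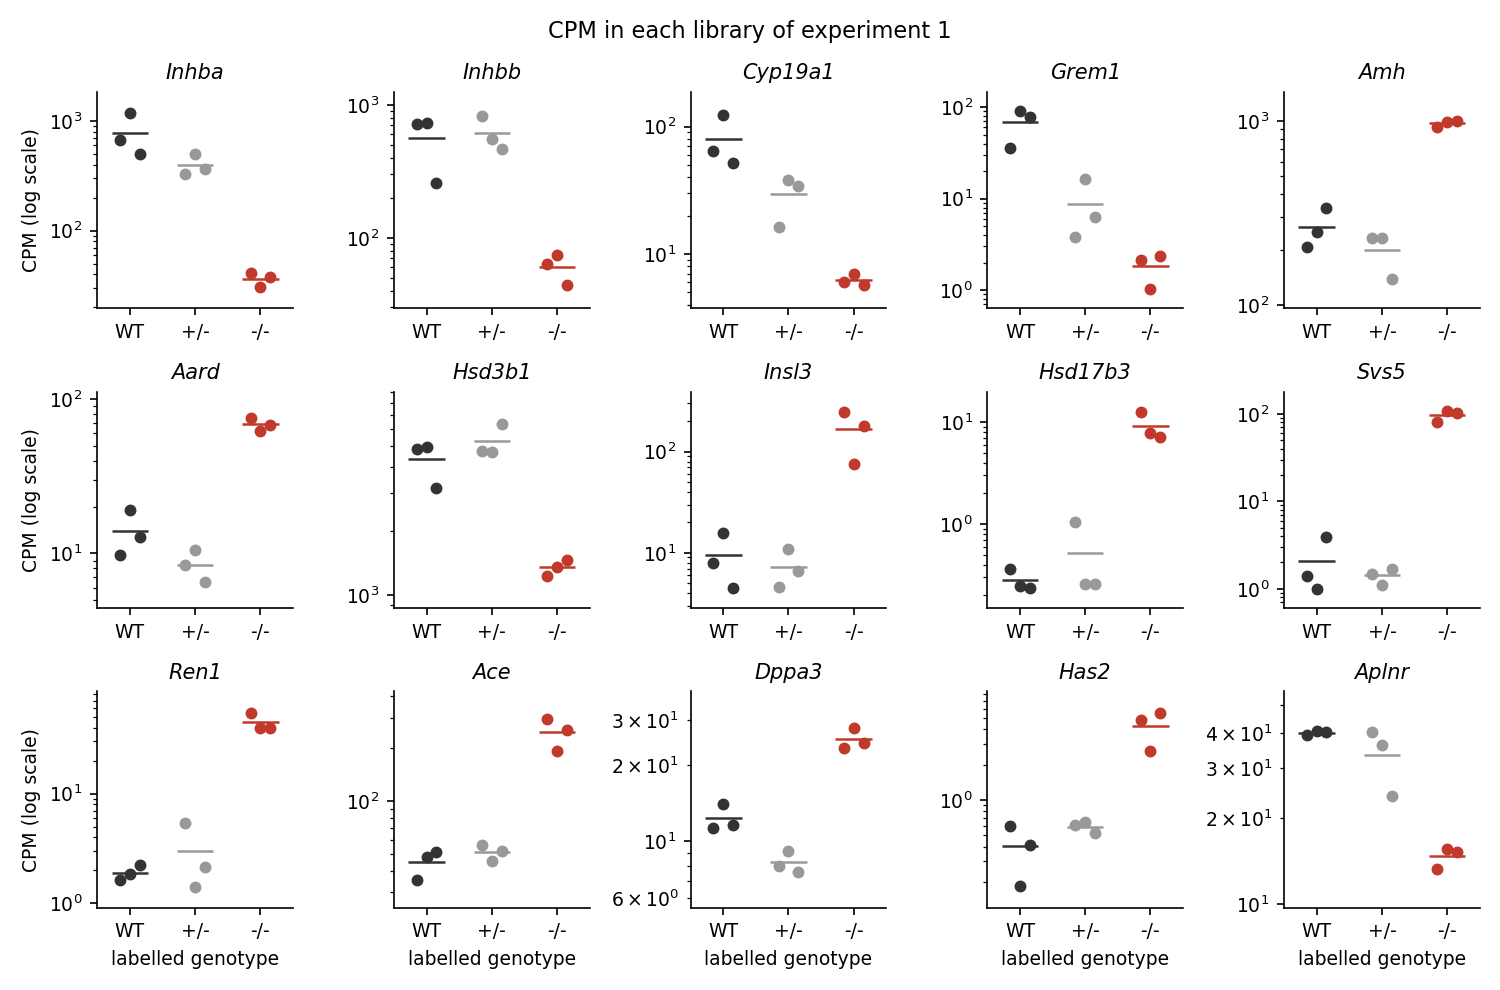
CPM (log scale, vertical axes) of 15 genes in each library of experiment 1, grouped by labelled genotype; points are libraries and bars are group means. The 3 KO-labelled libraries lie outside the range of the WT-labelled ones in every panel, low for Inhba (30.4 to 41.4 CPM) and high for Svs5 (80.4 to 109 CPM). The genes were picked from the 1355 called, of which 1352 showed no overlap, against 35.3% of all genes tested.

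Genes known from granulosa cells of small growing follicles moved the other way. Of 19 tested, 7 rose and none fell, with a median log2 difference of 0.57, and 4 were called in all 6 fits without 1 library. All 7 were also higher in experiments 2 and 3, and the list gave 4 to 7 higher calls when 1 library was left out, with 4 without KO replicate 1 or KO replicate 3. Amh, anti-Müllerian hormone, which these cells secrete and which restrains the recruitment of primordial follicles, was at 926, 985 and 1000.3 CPM in the KO-labelled libraries and at 206, 248 and 337 CPM in the WT-labelled ones. The KO-labelled libraries were high and tightly grouped, and the log2 difference was 1.88 ± 0.23 (edgeR adjusted p = 0.0031).

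Amhr2, the type II receptor of that hormone, rose with it, at 194, 254 and 225 CPM against 117, 111 and 119 CPM (log2 difference 0.96 ± 0.16, adjusted p = 0.0094). Aard, a gene known from Sertoli and granulosa cells, was at 76.1, 61.9 and 67.9 CPM against 9.75, 19.2 and 12.8 CPM (log2 difference 2.30 ± 0.25, adjusted p = 0.0019). Wt1, a transcription factor of the gonadal somatic cells, was at 189, 179 and 194 CPM against 102, 112 and 115 CPM (log2 difference 0.77 ± 0.12, adjusted p = 0.0074). None of the 4 genes overlapped between the groups. Foxl2, which maintains granulosa identity, and Sox9, its Sertoli counterpart, did not pass the test (log2 difference 0.07 ± 0.17, adjusted p = 0.84, and -0.40 ± 0.38, adjusted p = 0.56).

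Over the whole inhibin, activin, AMH and BMP family, 7 of 48 members tested rose and 6 fell, and 6 of these were called in all 6 fits without 1 library. Beside those named above, Bmp15 and Gdf9, the growth factors by which the oocyte acts on granulosa cells, were among the higher members. The lower members included Tgfbr1, the type I receptor used by TGF-beta and GDF9, at 100.45, 73.1 and 99.6 CPM against 239, 167 and 199 CPM (log2 difference -1.15 ± 0.20, edgeR adjusted p = 0.012). Tgfbr1 was named after its values were seen, being outside the naming rule. Family members thus moved in both directions, with the subunits of activin lower and the AMH ligand and receptor higher.

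Steroid-synthesis genes split by enzyme. Of 22 tested, 4 fell (Hsd3b1, Cyp19a1, Cyp11a1 and Fdx1) and 1 rose (Cyp21a1), with a median log2 difference of -0.53, and 3 were called in all 6 fits. Hsd3b1, the 3-beta-hydroxysteroid dehydrogenase that makes progesterone, was at 1224, 1359 and 1458 CPM in the KO-labelled libraries and at 4863, 4979 and 3182 CPM in the WT-labelled ones. It fell by 1.69 ± 0.21 on the log2 scale (edgeR adjusted p = 0.0027). Cyp11a1, which cleaves the cholesterol side chain in the first step of the pathway, was at 1246, 1964 and 1542 CPM against 5306, 5177 and 2361 CPM (log2 difference -1.43 ± 0.34, adjusted p = 0.038). WT replicate 3 was the lowest of its group for both enzymes, and the call of Cyp11a1 was kept without that library and lost without any other.

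Star, which carries cholesterol into the mitochondrion, varied more within groups than these enzymes. It was at 162, 230 and 187 CPM in the KO-labelled libraries and at 1561, 576 and 129 CPM in the WT-labelled ones, so that WT replicate 3 lay below all 3 KO-labelled libraries (log2 difference -1.97 ± 0.93, edgeR adjusted p = 0.23). Cyp17a1, the theca enzyme that makes androgens, was at 807, 1593 and 819 CPM against 524, 817 and 260.5 CPM (log2 difference 1.01 ± 0.99, adjusted p = 0.57). Its groups overlapped, and it spread from 6.18 to 214 CPM among the Fshb(+/-) libraries. In experiments 2 and 3 it was higher by 2.16 (adjusted p = 0.010) and 3.54 (adjusted p = 0.014) on the log2 scale.

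Theca genes and genes better known from the Leydig cell, the androgen-making cell of the testis, were higher for 9 of 22 tested and lower for 2, with a median log2 difference of 0.63 and 6 called in all 6 fits. The counts higher and lower were again 9 and 2 without WT replicate 3, 7 and 1 without KO replicate 2, 6 and 1 without KO replicate 3, and 5 and 2 without WT replicate 2. All 9 were higher in experiment 2 and 6 of them in experiment 3. Insl3, the peptide hormone of Leydig and theca cells, was at 247, 76.0 and 178 CPM in the KO-labelled libraries and at 7.99, 15.8 and 4.51 CPM in the WT-labelled ones (log2 difference 4.15 ± 0.62, edgeR adjusted p = 0.0093). KO replicate 2 was the lowest of its group, and it still stood more than 4 times above the highest WT-labelled library.

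Hsd17b3, the testis-type enzyme that reduces androstenedione to testosterone, was at 12.5, 7.84 and 7.13 CPM against 0.36, 0.25 and 0.24 CPM. It was close to absent in every WT-labelled library, and the log2 difference was 4.98 ± 0.56 (adjusted p = 0.0021). Hsd3b6, the 3-beta-hydroxysteroid dehydrogenase of the adult Leydig cell, was at 9.75, 10.8 and 5.90 CPM against 0.54, 1.11 and 0.65 CPM (log2 difference 3.51 ± 0.41, adjusted p = 0.0025). It thus moved opposite to its relative Hsd3b1. Cyp21a1, the 21-hydroxylase of the adrenal cortex, had 44, 27 and 72 counts in the KO-labelled libraries and 0 in each WT-labelled one. A count of 0 allows up to 3 counts, or 0.185 CPM, so it was at least 16.4-fold higher; it has a near-identical pseudogene, which makes its counts uncertain.

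Other steroid-handling enzymes rose too. Hsd11b2, which inactivates glucocorticoids, was at 249, 402 and 225 CPM against 56.1, 59.1 and 104.5 CPM (log2 difference 2.00 ± 0.30, edgeR adjusted p = 0.0075). Cyp27a1, the mitochondrial sterol 27-hydroxylase, was at 49.3, 64.5 and 55.7 CPM against 14.9, 13.8 and 24.5 CPM (log2 difference 1.67 ± 0.22, adjusted p = 0.0038). Of 14 hydroxysteroid dehydrogenases tested, 3 rose and 1 fell, and all 4 were called in each fit without 1 library. Pdgfra, the receptor by which stromal and theca progenitors sense platelet-derived growth factor, was at 582, 435 and 566 CPM against 196, 221 and 178 CPM (log2 difference 1.41 ± 0.23, adjusted p = 0.0090). The matrix protein Thbs2 went the other way within the theca list, at 19.8, 18.1 and 21.02 CPM against 47.8, 46.2 and 37.1 CPM (log2 difference -1.15 ± 0.12, adjusted p = 0.0015).

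Of 20 genes of the male tract and of Sertoli cells, 10 were high enough to be tested. Of these 10, 5 rose, 4 did not pass the test and 1 fell (Dhh, a hedgehog ligand, by 0.5 on the log2 scale), the median log2 difference was 1.99, and 4 were called in all 6 fits. The 5 rises were present in both other experiments. Svs5 (chromosome 2, 164332740 to 164334396), a secretory protein known from the seminal vesicle, was at 80.4, 109 and 101 CPM in the KO-labelled libraries and at 1.39, 0.99 and 3.86 CPM in the WT-labelled ones. The log2 difference was 5.53 ± 0.43 (edgeR adjusted p = 0.00078). Its neighbour Svs6 was at 3.21, 7.62 and 7.68 CPM against 0.06, 0 and 0.30 CPM, which is 0 to 0.30 CPM in every WT-labelled library (adjusted p = 0.0051).

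Nxf3, a relative of the RNA export factors, was at 43.0, 28.9 and 31.7 CPM against 2.12, 2.78 and 3.44 CPM (log2 difference 3.63 ± 0.27, adjusted p = 0.00048). Cldn11, the claudin of the Sertoli cell barrier and of myelin, was at 56.3, 69.04 and 72.3 CPM against 14.8, 16.3 and 13.4 CPM. Its log2 difference was 2.15 ± 0.13, and its adjusted p of 0.00031, shared with Ptk2b, was the smallest after that of the ribosomal protein copy Rps3a3. The Fshb(+/-) libraries stood at 10.7 to 12.3 CPM, on the WT-labelled side.

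Svs5 and Svs6 are shown with Nppc because all 3 promoters carry the letters TATAAA at the place of a TATA box, while Svs5 and Svs6 rose and Nppc fell. The sequences are from RefSeq on GRCm38.p6 and give the 60 bases before the RefSeq start, 5′ to 3′ on the gene's strand, with TATAAA in capitals. Svs5 is at chr2:164332705-164332764 (plus strand), Svs6 at chr2:164316691-164316750 (plus strand) and Nppc at chr1:86670574-86670633 (minus strand).
Svs5: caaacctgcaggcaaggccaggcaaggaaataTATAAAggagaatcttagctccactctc
Svs6: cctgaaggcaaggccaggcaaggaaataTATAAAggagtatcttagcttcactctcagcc
Nppc: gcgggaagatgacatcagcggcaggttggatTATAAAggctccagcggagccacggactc
The motif starts 28, 32 and 29 bases before the RefSeq start, and the windows of Svs5 and Svs6 share an unbroken run of 33 bases. The GENCODE coordinates of Svs5 given above start inside its printed window, so the place of its motif holds for the RefSeq start only. Among 12133 genes tested that have a RefSeq promoter, 1.65% held TATAAA on the gene's own strand starting 40 to 20 bases before the start. The share was 4.46% of the 224 such genes that were higher by at least 2-fold and 3.9% of the 231 that were lower by at least 2-fold. The motif AAGGTCA, bound by SF-1 and LRH-1, was searched on both strands of the 250 bases before to 50 bases after the start and was present in 4.16% of all, in 4.46% of those 224 higher genes and in 5.19% of those 231 lower genes. The cyclic AMP response element TGACGTCA, searched in the same way, was present in 3.22%, 2.68% and 1.73% of the same sets. Over all higher genes with a RefSeq promoter (558) and all lower ones (420), AAGGTCA was present in 4.48% and 4.52%, and TGACGTCA in 2.69% and 3.1%. TATAAA at the place described was present in 3.05% and 2.86% of these. These are matches of letters and show no binding.

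The renin and angiotensin system, which in the ovary is known from theca cells, had 3 of 11 members higher and 2 lower, with 2 called in all 6 fits without 1 library. Ren1, encoding renin, was at 54.6, 39.7 and 39.6 CPM in the KO-labelled libraries and at 1.63, 1.85 and 2.26 CPM in the WT-labelled ones (log2 difference 4.54 ± 0.45, edgeR adjusted p = 0.0015). Some mouse strains carry a near-identical second renin gene, which makes the value uncertain. Ace, the angiotensin-converting enzyme, was at 293, 192 and 255 CPM against 35.4, 48.0 and 51.4 CPM (log2 difference 2.46 ± 0.19, adjusted p = 0.00048). Agt, the precursor angiotensinogen, was at 377, 301 and 331 CPM against 141, 80.9 and 148 CPM (log2 difference 1.45 ± 0.31, adjusted p = 0.027, lost without any 1 library except WT replicate 3). Enpep, the aminopeptidase that degrades angiotensin II, was lower, at 35.1, 32.7 and 31.0 CPM against 61.6, 62.1 and 84.2 CPM (log2 difference -1.07 ± 0.19, adjusted p = 0.013, lost without KO replicate 2 or KO replicate 3).

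Oocyte genes were higher in the KO-labelled ovaries. Of 32 maternal effect genes tested, whose products the egg stores for the early embryo, 19 rose and none fell. All 32 log2 differences were above zero, with a median of 0.84, and 7 of the 19 were called in all 6 fits. All 19 were higher in both other experiments, and the count was 7 to 13 when 1 library was left out, with 7 without WT replicate 1 and 9 without KO replicate 3. Dppa3, needed to protect the maternal genome after fertilization, was at 23.4, 28 and 24.3 CPM against 11.3, 14.1 and 11.6 CPM (log2 difference 1.03 ± 0.14, edgeR adjusted p = 0.0042). H1foo, the linker histone of the oocyte, was at 61.4, 70.2 and 62.6 CPM against 31.8, 33.4 and 34.6 CPM (log2 difference 0.96 ± 0.14, adjusted p = 0.0065). Bcl2l10, a BCL2 relative of the oocyte, was at 38.7, 40.7 and 38.6 CPM against 18.9, 22.8 and 22.7 CPM (log2 difference 0.87 ± 0.13, adjusted p = 0.0064). The differences in these 3 genes were of like size, near 2-fold.

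Of 17 genes for zona proteins, secreted factors and transcription factors of the oocyte, 8 rose and none fell, with a median of 0.84, and 3 were called in all 6 fits. Zp2, a protein of the zona pellucida, was at 120.2, 141 and 157 CPM against 58.8, 75.9 and 69.8 CPM (log2 difference 1.03 ± 0.17, edgeR adjusted p = 0.010). Bmp15 was at 63.9, 51.1 and 66.3 CPM against 33.7, 37.3 and 31.5 CPM (log2 difference 0.82 ± 0.14, adjusted p = 0.011, lost without KO replicate 3). Gdf9 was at 139, 143 and 159 CPM against 70.2, 93.8 and 88.3 CPM (log2 difference 0.81 ± 0.19, adjusted p = 0.036, lost without any 1 library). Of 15 meiosis genes, 1 rose (Wee2, the kinase that holds the oocyte in prophase) and none fell, with a median of 0.72. Of 34 cell cycle genes, 6 rose and none fell, 1 of them (Bub1b, a spindle checkpoint kinase, log2 difference 0.82 ± 0.14, adjusted p = 0.011) in all 6 fits.

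**Figure D5:**
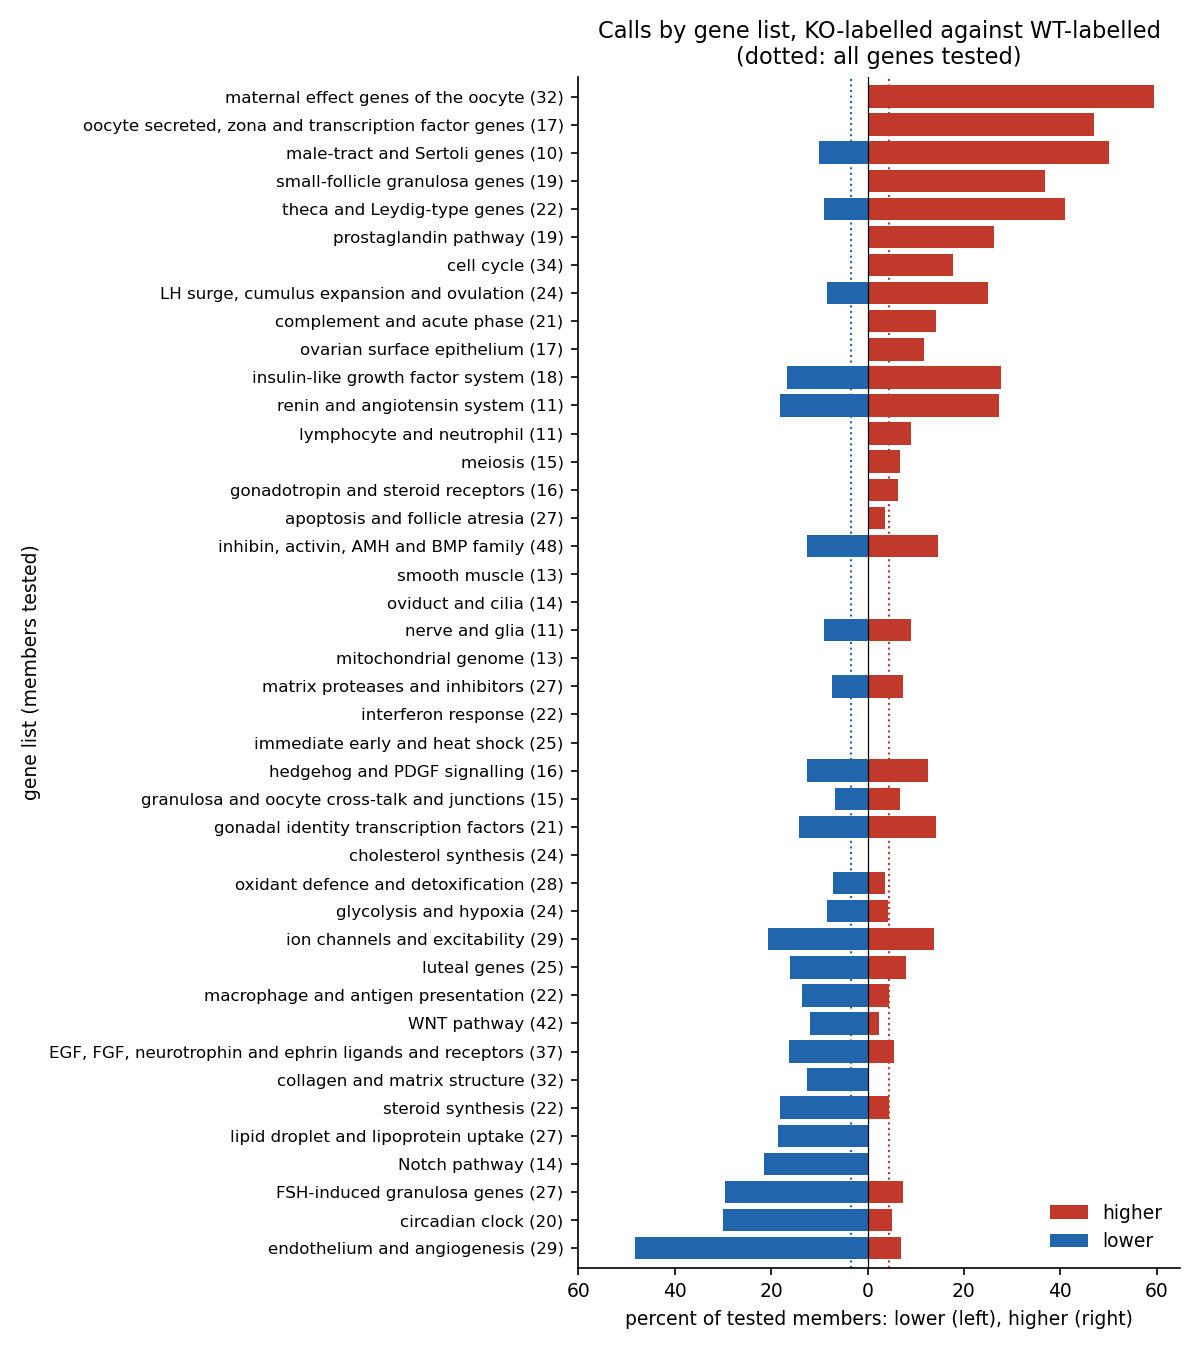
Percent of the tested members of each gene list called higher (red, to the right) or lower (blue, to the left) in KO-labelled ovary, with the number tested in brackets; dotted lines give the shares over all genes tested, 4.53% higher and 3.34% lower. Maternal effect genes have the longest bar to the right (19 of 32) and endothelial genes the longest to the left (14 of 29).

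Luteal genes, known from the corpus luteum that forms after ovulation, depended on WT replicate 3. With all libraries, 4 of 25 tested fell and 2 rose (median log2 difference -1.39), and without WT replicate 3 the count was 12 lower and 1 higher. Without any other library 1 fell, and 1 member was called in all 6 fits. Sfrp4, a secreted WNT antagonist, was at 45.6, 38.6 and 72.7 CPM in the KO-labelled libraries and at 2762, 3220 and 44.5 CPM in the WT-labelled ones. WT replicate 3 thus lay among the KO-labelled libraries, and the log2 difference of -5.26 ± 1.46 had an edgeR adjusted p of 0.071, against -5.83 ± 0.86 and 0.013 without that library. Ptgfr, the prostaglandin F2 alpha receptor that triggers luteal regression, was at 2.79, 3.44 and 7.68 CPM against 548, 559 and 7.30 CPM. Its log2 difference was -6.32 ± 1.60 (adjusted p = 0.054), and -6.89 ± 0.96 (adjusted p = 0.012) without WT replicate 3.

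Akr1c18, the enzyme that inactivates progesterone, was at 1.27, 2.27 and 0.80 CPM against 17.2, 827 and 2.43 CPM (edgeR adjusted p = 0.073; without WT replicate 3 its log2 difference was -8.20 ± 1.54 and its adjusted p 0.030). Prlr, the prolactin receptor, was at 262, 146 and 301 CPM against 912, 672 and 293 CPM (adjusted p = 0.11; without WT replicate 3 its log2 difference was -1.74 ± 0.38 and its adjusted p 0.043). All of these genes were lower in experiment 2, with log2 differences of -7.54 (Sfrp4), -8.48 (Ptgfr), -9.35 (Akr1c18) and -1.56 (Prlr) and adjusted p of 0.00038, 0.00092, 0.0014 and 0.023. Of 27 genes of lipid droplets and lipoprotein uptake, 5 fell and none rose, and the 5 fell in experiments 2 and 3 as well; none was called in all 6 fits. Of 24 cholesterol synthesis genes none was called (median -0.53).

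The WNT pathway had 1 higher and 5 lower of 42 members tested, with 2 called in all 6 fits without 1 library. Fzd4, a WNT receptor that ovarian fertility is known to need, was at 37.2, 33.6 and 39.4 CPM in the KO-labelled libraries and at 83.4, 61.04 and 80.8 CPM in the WT-labelled ones (log2 difference -1.03 ± 0.15, edgeR adjusted p = 0.0050). Rnf43, a ligase that removes these receptors, was at 2.42, 2.79 and 2.83 CPM against 5.51, 7.35 and 9.38 CPM (log2 difference -1.47 ± 0.24, adjusted p = 0.0093). Wnt10b, a WNT ligand, was at 0.42, 0.44 and 1.04 CPM against 98.1, 146 and 1.54 CPM, with WT replicate 3 again near the KO-labelled libraries (log2 difference -6.97 ± 1.53, adjusted p = 0.036). Without WT replicate 3 the difference in Wnt10b was -7.54 ± 0.42 (adjusted p = 0.00058), and its call was lost without any other library.

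In the Notch pathway, which links neighbouring cells, 3 of 14 members fell and none rose, and all 3 were called in every fit without 1 library. Notch3, the receptor of mural cells, was at 26.7, 23.97 and 32.9 CPM against 63.99, 62.8 and 75.6 CPM (log2 difference -1.28 ± 0.15, edgeR adjusted p = 0.0024). Notch4, the receptor of endothelium, was at 12.1, 11.9 and 13.3 CPM against 23.6, 23.8 and 21.4 CPM (log2 difference -0.88 ± 0.12, adjusted p = 0.0038). Hey2, a transcriptional target of the pathway, was at 19.8, 20.0 and 17.02 CPM against 34.0, 33.6 and 37.8 CPM (log2 difference -0.89 ± 0.11, adjusted p = 0.0026). In experiment 3 Hey2 was not called (log2 difference -0.16, adjusted p = 0.68).

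Endothelial and angiogenic genes had the largest count of falls among the lists. Of 29 tested, 14 fell and 2 rose, with a median log2 difference of -0.54, and 3 were called in all 6 fits. All 14 fell in experiment 2 and 12 of them in experiment 3, and the count was 3 to 8 when 1 library was left out, with 3 without KO replicate 1, 5 without KO replicate 3 or WT replicate 1, and 8 without WT replicate 3. The summed level of the list was 996 to 1160 CPM in the KO-labelled libraries and 1382 to 1592 CPM in the WT-labelled ones. Aplnr, the apelin receptor of venous and sprouting endothelium, was at 13.3, 15.6 and 15.2 CPM against 39.4, 40.7 and 40.1 CPM (log2 difference -1.44 ± 0.18, edgeR adjusted p = 0.0030). Cdh5, the cadherin of endothelial junctions, was at 103, 109 and 116 CPM against 183, 171 and 179 CPM (log2 difference -0.70 ± 0.09, adjusted p = 0.0038). Pecam1, a general endothelial adhesion molecule, was at 48.2, 49.9 and 51.7 CPM against 96.1, 78.5 and 102.9 CPM (log2 difference -0.89 ± 0.14, adjusted p = 0.0083).

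Vegfa, the main angiogenic growth factor, was at 45.9, 50.4 and 47.3 CPM against 157, 101.1 and 79.5 CPM (log2 difference -1.23 ± 0.26, edgeR adjusted p = 0.025), a call lost without any library other than WT replicate 3. Angpt4, a ligand of the Tie2 receptor and 1 of the genes with the largest rise, went the other way, at 51.0, 58.3 and 48.9 CPM against 3.39, 8.34 and 5.94 CPM (log2 difference 3.16 ± 0.31, adjusted p = 0.0011). The list's 2 rises were in Angpt2, which opposes Tie2 signalling, and Vwf.

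Genes that LH is known to induce at ovulation were higher for 6 of 24 tested and lower for 2, with a median log2 difference of 0.09 and 5 called in all 6 fits. Has2, which makes the hyaluronan of the expanding cumulus, was at 4.79, 2.64 and 5.47 CPM in the KO-labelled libraries and at 0.61, 0.19 and 0.42 CPM in the WT-labelled ones (log2 difference 3.39 ± 0.44, edgeR adjusted p = 0.0038). Ereg, an EGF-like growth factor, was at 3.21, 4.32 and 4.92 CPM against 0.54, 1.05 and 1.07 CPM (log2 difference 2.21 ± 0.38, adjusted p = 0.011). Rgs2, a regulator of G protein signalling, was at 645, 707 and 598 CPM against 204.5, 258 and 297 CPM (log2 difference 1.36 ± 0.15, adjusted p = 0.0017). Has2 and Ereg were at a few CPM even in the libraries where they were high.

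The 2 lower members were Cd44, the hyaluronan receptor, and Cebpa, a transcription factor of the LH response. Cd44 was at 10.4, 9.75 and 13.8 CPM against 27.1, 29.3 and 29.8 CPM (log2 difference -1.34 ± 0.16, edgeR adjusted p = 0.0025), and Cebpa at 52.2, 63.3 and 61.5 CPM against 122, 136 and 98.6 CPM (log2 difference -1.01 ± 0.13, adjusted p = 0.0034). In the prostaglandin pathway 5 of 19 members rose and none fell, with 2 called in all 6 fits without 1 library. Ptgis, prostacyclin synthase, was at 182, 240.4 and 208 CPM against 58.7, 57.6 and 78.9 CPM (log2 difference 1.69 ± 0.16, adjusted p = 0.0010). Hpgd, the enzyme that degrades prostaglandins, was at 131, 128 and 119 CPM against 38.0, 43.3 and 43.5 CPM (log2 difference 1.60 ± 0.15, adjusted p = 0.0010). The synthase of 1 prostaglandin and the enzyme that breaks prostaglandins down thus rose side by side.

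The collagen and laminin families held calls in both directions. Of 41 collagens tested, 6 rose and none fell, with 4 called in all 6 fits. The share called was 14.6%, against 7.87% of all genes tested, and 23 members were above zero and 18 below. Of 11 laminins tested, 1 rose and 2 fell (27.3% called), with 9 members above zero and 2 below. Col4a3 was at 105, 51.1 and 87.2 CPM in the KO-labelled libraries and at 18.8, 22.2 and 23.3 CPM in the WT-labelled ones (log2 difference 1.92 ± 0.26, edgeR adjusted p = 0.0042). Col4a4, which lies head to head with it and shares its promoter region, was at 316, 181 and 270 CPM against 83.5, 89.2 and 81.8 CPM (log2 difference 1.59 ± 0.20, adjusted p = 0.0032). Both encode chains of the type IV collagen network known from the glomerulus, and both were lowest in KO replicate 2 among the KO-labelled libraries.

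Lama4, the laminin chain of vascular basement membrane, was lower, at 59.8, 50.3 and 71.05 CPM against 118, 154 and 194 CPM (log2 difference -1.36 ± 0.18, edgeR adjusted p = 0.0040). A list of 32 genes of collagen and matrix structure had 4 lower and none higher (12.5% called), with 15 members above zero and 17 below. Among other matrix genes Lum, a proteoglycan that spaces collagen fibrils, was at 24.8, 35.0 and 34.6 CPM against 104, 96.5 and 119 CPM (log2 difference -1.76 ± 0.23, adjusted p = 0.0036). Fn1, fibronectin, was at 113, 83.3 and 124 CPM against 221, 260 and 215 CPM (log2 difference -1.12 ± 0.15, adjusted p = 0.0043). Adamts15, a protease that cleaves versican, was at 18.7, 20.2 and 25.0 CPM against 3.996, 4.08 and 3.21 CPM (log2 difference 2.498 ± 0.24, adjusted p = 0.0010).

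Transport and amino acid metabolism held several of the abundant genes that rose. Of 276 solute carriers tested, 17 rose and 9 fell, with 11 called in all 6 fits, a share of calls (9.4%) near that of all genes. Slc7a5, a carrier of large neutral amino acids, was at 669, 727 and 648 CPM against 280.5, 323 and 342 CPM (log2 difference 1.11 ± 0.12, edgeR adjusted p = 0.0016). Slc29a1, a nucleoside carrier, was at 216, 252 and 263 CPM against 96.0, 115 and 107 CPM (log2 difference 1.2 ± 0.11, adjusted p = 0.0010). Gpt2, a mitochondrial alanine aminotransferase, was at 188, 206 and 242 CPM against 41.7, 51.0 and 36.5 CPM (log2 difference 2.30 ± 0.18, adjusted p = 0.00048). Ldhb, a subunit of lactate dehydrogenase, was at 727, 846 and 711 CPM against 335, 350.3 and 407 CPM (log2 difference 1.07 ± 0.14, adjusted p = 0.0038). Each of these 4 genes was also higher in both other experiments.

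Further genes stood out by the size or the certainty of their difference. Spon1, a secreted matrix protein named for the floor plate, was at 739, 762.5 and 764 CPM in the KO-labelled libraries and at 106, 149.9 and 192 CPM in the WT-labelled ones (log2 difference 2.34 ± 0.25, edgeR adjusted p = 0.0019). Rbbp7, a histone-binding subunit of chromatin complexes, was at 1046, 1116 and 1005 CPM against 326, 407 and 436 CPM (log2 difference 1.44 ± 0.13, adjusted p = 0.0010). L3mbtl4, which has the domains of a chromatin reader, was at 8.97, 5.28 and 10.9 CPM against 0.06, 0.12 and 0.18 CPM. In L3mbtl4 the WT-labelled values rest on a few counts a library (log2 difference 6.03 ± 0.45, adjusted p = 0.00048). Ptk2b, a calcium-responsive tyrosine kinase, was at 13.4, 15.02 and 15.1 CPM against 61.02, 77.0 and 67.9 CPM (log2 difference -2.24 ± 0.14, adjusted p = 0.00031). Nt5e, the ectoenzyme that makes adenosine, was at 28.7, 26.6 and 23.97 CPM against 7.33, 6.30 and 6.89 CPM (log2 difference 1.95 ± 0.14, adjusted p = 0.00048). All 5 were called in each fit without 1 library and in the same direction in both other experiments.

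Among genes of cyclic AMP turnover, the second messenger of both gonadotropin receptors, 1 of 30 phosphodiesterases and adenylyl cyclases rose and 5 fell, with 2 called in all 6 fits. Pde1a was at 10.2, 10.5 and 11.4 CPM against 35.8, 37.6 and 28.1 CPM (log2 difference -1.66 ± 0.19, edgeR adjusted p = 0.0021). Pde8a, a phosphodiesterase with high affinity for cyclic AMP, was at 58.1, 60.02 and 66.4 CPM against 106, 105 and 101.1 CPM (log2 difference -0.76 ± 0.11, adjusted p = 0.0044). Among 29 genes of ion channels and excitability 4 rose and 6 fell, with 5 called in all 6 fits. Cacna1c, the pore of the L-type calcium channel, was at 9.94, 6.596 and 12.8 CPM against 32.9, 34.6 and 32.5 CPM (log2 difference -1.76 ± 0.23, adjusted p = 0.0034), while the potassium channel Kcnk1 was at 76.9, 65.2 and 65.8 CPM against 14.7, 23.97 and 28.03 CPM (log2 difference 1.64 ± 0.24, adjusted p = 0.0063).

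Markers of other cells that whole ovary can carry, apart from the endothelial list given above, were mostly not called. None of the tested genes of oviduct and cilia (14), smooth muscle (13), adipocytes (8), erythrocytes and skeletal muscle (5) or the pituitary and other endocrine glands (2) passed the test. Of 11 nerve and glia genes 1 rose and 1 fell, with 1 called in all 6 fits without 1 library. Of 11 lymphocyte and neutrophil genes 1 rose, and none was called in all 6 fits. Among lists that mark no cell type, none of the interferon response (22), immediate early and heat shock (25) or mitochondrial genome (13) genes passed. The oviduct list summed to 81.8 to 109 CPM in the KO-labelled and 65.2 to 118 CPM in the WT-labelled libraries, and its member Sntn had no counts in the KO-labelled libraries or in the WT replicates 1 and 2, and 4 in WT replicate 3. That library also held 73 counts of Foxj1 (4 to 15 in the other 5), 46 of Dnah5 (3 to 9), 29 of Ccdc153 (1 to 10) and 255 of Ovgp1 (25 to 91). Other members of the list were not raised there, with 39 counts of Dnah9 (65 to 256), 48 of Rsph1 (31 to 58) and 66 of Cfap126 (51 to 81). Among the adipocyte markers, Cfd had 194, 42 and 55 counts in the KO-labelled libraries against 3, 7 and 4, and Adipoq had 23, 9 and 10 against 2, 4 and 3, each higher in every KO-labelled library though neither passed the test. Lipe went the other way, with 522, 421 and 501 counts against 1026, 691 and 593. The adipocyte list had 4 members above zero and 4 below, with a median log2 difference of -0.07. Its sums overlapped, at 106.1 to 130.7 CPM against 105.4 to 148.9 CPM. The part of these cells in the other results was not tested. Of 17 genes of the surface epithelium 2 rose, Wt1 and Igfbp5, both of which granulosa cells also express. The list summed to 1504 to 1735 CPM against 1050 to 1240 CPM, while its median log2 difference was 0.03, with 9 members above zero and 8 below. Of 22 macrophage genes 3 fell and 1 rose, and the list summed to 711 to 909.5 CPM against 1017 to 1407 CPM. The median log2 difference of the macrophage list was -0.126, with 8 members above zero and 14 below.

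Shares of called genes near the targeted locus are given beside those elsewhere, and the difference was not tested. Within 20 Mb of Fshb on chromosome 2, 15 of 268 genes tested rose and 19 fell (12.7%), against 9.01% on the rest of the chromosome and 7.87% of all genes; chromosome 9 as a whole had 10.1%. Within 5 Mb the share was 18.4% of 49 genes. Several genes of the results above lie in this window, among them Grem1, Wt1, Cd44 and Bub1b, and all 4 changed in the same direction in experiment 2.

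Of the 10 genes called in opposite directions in experiments 1 and 2, 6 lie in that window: Fshb, Mapkbp1, Jmjd7, Pla2g4b, Eif3j1 and Spg11. The other 4 are Amd2, Atp10d, Chst4 and Eif3j2, and all 10 were singled out after their values were seen. Jmjd7, a member of the Jumonji family, was at 1.03, 1.03 and 1.48 CPM in the KO-labelled libraries and at 5.27, 5.07 and 9.68 CPM in the WT-labelled ones. It fell by 2.49 ± 0.34 on the log2 scale in experiment 1 (edgeR adjusted p = 0.0042) and was higher by 2.66 in experiment 2 (adjusted p = 0.00016). Eif3j1, a subunit of a translation initiation factor, was at 18.8, 18.1 and 16.8 CPM against 33.1, 28.4 and 41.6 CPM, with -0.94 ± 0.15 (adjusted p = 0.0094) and 1.32 (adjusted p = 1.3e-05) in the 2 experiments. Jmjd7 ends at 120032594 on chromosome 2 and its neighbour Pla2g4b starts at 120033417. How reads were divided between these 2 genes was not tested. Eif3j1 overlaps Spg11 and has a close copy in Eif3j2, so reads of these genes can be divided wrongly and their values are uncertain.

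A direct test of the difference between the effects of experiments 1 and 2, added after these values were seen, called 28 of 18255 genes (0.153%). They included 9 of the 10 genes above (all but Chst4) and 7 of the 34 called genes in the window, namely the 6 named and Strc, the gene of an inner ear protein, which was too low to be tested in experiment 2 alone. The 10 genes had been chosen for opposite calls in these same libraries, so this test was nearly bound to call them. The 34 had been chosen by their calls in experiment 1. These counts therefore add no support to either choice. The panel of 40 genes for FSH action was written with earlier results of these data known. Of the 40, 20 were called in experiment 1 (11 higher, 9 lower), against 7.87% of all genes tested. Because of how the panel was chosen, this count adds no separate support. In the panel 1 gene differed between the experiments by the direct test, which was Fshb. A p that misses the threshold does not show that the others differed by the same amount in both, and the breeding of the 3 experiments' mice is not given in the labels.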

How the data were processed

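The measurements are RNA-seq counts per gene from 33 libraries of polyadenylated mouse ovary RNA, of which 6 are compared here (3 labelled Fshb(-/-), 3 labelled WT) and the rest serve as further experiments. Per the labels' protocols, ovary RNA went through a column kit and a DNase step, and a university genomics core sequenced experiments 1 and 2. The values the authors deposited are expected counts (estimated counts per gene, which need not be whole) for 54347 identifiers; 18.3% to 20.1% of the values in the 6 libraries were not whole, and all were rounded. The submitters' processing notes name Salmon, DESeq2 and the build GRCm38, without their roles. Tool versions, annotation and strand setting are not given in the sources used. Estimated counts divide reads among near-identical copies and overlapping genes, so such genes are called uncertain.

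Symbols and coordinates came from GENCODE M21 on GRCm38 (54094 identifiers matched without their version). edgeR 4.0.16 in R 4.3.3 was run on the 9 libraries of experiment 1, which share the estimate of spread: TMM scaling, a filter with filterByExpr on the groups, a robust glmQLFit, then glmQLFTest of Fshb(-/-) minus WT with Benjamini-Hochberg adjustment over 17223 genes, threshold 0.05. CPM use TMM-scaled library sizes. Experiments 2 and 3 were fitted apart in the same way. Scripts were tested on simulated data. A count of 0 allows up to 3 counts, a limit that covers counting error only. Each SE is the absolute log2 difference divided by the square root of the test's F statistic. It therefore includes the spread between libraries. No 2 replicates were the same library: chi-square over degrees of freedom ran from 9.8 to 55.8 within groups. The alternatives were DESeq2 1.42.0, median-of-ratios size factors, a mean of at least 1 CPM, no filter, only the 2 groups, the replicate number as a block, and leaving out each library. The difference test between experiments 1 and 2, the list counts without 1 library and the p53 list were added after seeing the data.

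The comparison, the gene lists, the gene families and the panel were chosen with earlier results of these data known. Named genes are a panel of 40; the 12 largest rises and falls by fold and the 10 by CPM among called genes with a mean of at least 5 CPM and no overlap, leaving out predicted models, pseudogenes and ribosomal proteins; the 10 smallest p under the same exclusions; up to 4 of smallest p per list; and up to 8 called genes within 20 Mb of Fshb. Genes outside the rule were named after their values were seen: Tgfbr1, Angpt2, Vwf, Strc, Sntn, Foxj1, Dnah5, Ccdc153, Ovgp1, Cfd, Adipoq, Rps3a3, the p53 targets and those called in opposite directions. Dnah9, Rsph1, Cfap126 and Lipe were added beside them as further members of the same lists.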

Additional observations from a re-analysis of the deposited data

How the results depend on the processing

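The count of genes past the threshold was 1355 (780 higher, 575 lower). It stayed within 1.5 times of this with median-of-ratios size factors (1372), a mean of at least 1 CPM (1324), no filter (1185) and only the 2 groups compared (1873). DESeq2 called 2419 genes (1263 higher, 1156 lower), which included 1350 of the 1355. Leaving out 1 library gave 456 to 1031 genes, 283 to 544 higher and 159 to 487 lower. Counts shared in direction with experiment 2 were 1110, with DESeq2 1977 and without 1 library 399 to 891; with experiment 3 they were 1008, with DESeq2 1719 and without 1 library 370 to 808. WT replicate 3 changed the luteal list most, from 4 lower calls to 12, and 206 genes were called only without it.

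Replicate numbers did not pair the libraries: deviations of same-numbered libraries correlated at 0.037, -0.071 and -0.029. With the replicate block 911 genes were called (528 higher, 383 lower), 856 of them among the 1355. Of 141 genes tracked singly, none of the 126 called with all libraries changed sign under any of these alternatives. Among the 15 not called, Inha changed from -0.09 to 0.01 without KO replicate 1 or WT replicate 2, Kitl from -0.16 to 0.07 without KO replicate 2 and Foxl2 from 0.07 to -0.03 without WT replicate 3. The call was lost for 14 with the block, 13 without the filter, 6 with only the 2 groups, 1 with a mean of at least 1 CPM, and 10 to 31 when 1 library was left out. Calls were gained for 4 genes without WT replicate 3 and for 1 without WT replicate 2. With all libraries, DESeq2 gained 3, which were Sfrp4, Ptgfr and Prlr (DESeq2 adjusted p = 0.00056, 3.4e-05 and 0.0075). Ptgfr also passed with a mean of at least 1 CPM (edgeR adjusted p = 0.048). Totals of 13.59 M to 16.93 M counts a library limit genes under about 1 CPM, where 3 libraries a group leave wide errors.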

Other observations

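Of 20 circadian clock genes tested, 6 fell and 1 rose, with a median log2 difference of -0.61; none of the 6 fell in experiment 2 and 1 fell in experiment 3. The 6 falls became 1 without KO replicate 3 or WT replicate 1, 2 without KO replicate 1, KO replicate 2 or WT replicate 2 and 5 without WT replicate 3, and 2 members were called in all 6 fits. Nr1d1, a repressor in the clock's second loop, was at 71.1, 69.5 and 69.3 CPM in the KO-labelled libraries and at 140.45, 130.55 and 142 CPM in the WT-labelled ones (log2 difference -0.98 ± 0.12, edgeR adjusted p = 0.0031), against a log2 difference of -0.07 (adjusted p = 0.70) in experiment 2. The test of the difference between experiments 1 and 2 called none of the 20 genes (Nr1d1 adjusted p = 0.082). The hour of collection is not given in the labels, and its part in these values was not tested.

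Adhesion and guidance families leaned towards falls. Of 73 cadherins and protocadherins tested, 8 fell and none rose, 2 were called in all 6 fits without 1 library, and 6 of the 8 fell in experiment 2. Cdh13, a cadherin without a cytoplasmic tail, was at 1.45, 1.10 and 0.98 CPM against 11.7, 7.72 and 21.2 CPM (log2 difference -3.51 ± 0.50, edgeR adjusted p = 0.0056). Of 48 semaphorins, plexins and ephrin-system genes 9 fell and 2 rose (22.9% called), with 4 called in all 6 fits. In that family 36 members were below zero and 12 above. The receptor Epha3 was at 3.999, 4.98 and 4.79 CPM against 17.2, 15.6 and 9.15 CPM (log2 difference -1.60 ± 0.23, adjusted p = 0.0050). Mbp, the myelin basic protein, was at 16.2, 16.2 and 18.4 CPM against 66.8, 97.6 and 26.9 CPM (log2 difference -1.91 ± 0.41, adjusted p = 0.031, kept without WT replicate 3 and lost without any other library). Complement gene C7 was at 98.8, 72.04 and 96.1 CPM against 9.14, 8.09 and 14.4 CPM (log2 difference 3.08 ± 0.29, adjusted p = 0.0010).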
